A study of Rattus norvegicus with 6 samples.

Results

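Genes for the proteins of the cytosolic ribosome were followed in the kidneys of rats on a hyperammonemic diet (HD group) and on normal chow (AL group). They were taken by symbol, as every gene named Rpl, Rps or Rplp followed by a digit, together with Rpsa, and without the Rps6k kinases. This gave 85 of the 17051 genes listed. Of these, 43 encode proteins of the large subunit, 31 encode proteins of the small subunit and 3 encode the stalk. The other 8 were 6 paralogs (Rpl22l1, Rpl36al, Rpl39l, Rpl3l, Rps27l and Rps4y2), the pseudogene Rpl37a-ps1, and Rps19bp1, which shares the name but encodes a binding partner of Rps19.

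The study asked how the kidney adapts to an increased ammonia load. Whole kidney tissue came from 6 male Sprague Dawley rats, 3 in the AL group (rats 61, 71 and 88) and 3 in the HD group (rats 64, 67 and 69), each sequenced as its own poly(A)-selected library. AL rats ate standard laboratory chow freely. HD rats ate chow mixed with amino acids in the proportions of hemoglobin, which raises renal ammonia production in animals with a normal liver, and both diets lasted 7 days. The labels give no age. Because the tissue is bulk kidney, fewer cells of a type and less RNA per cell cannot be told apart.

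The ribosome translates messenger RNA into protein. Its small subunit decodes the message and its large subunit joins amino acids, while the acidic stalk proteins recruit the factors that drive elongation. A cell needs these proteins in matched amounts, and their messenger RNAs are among the most abundant in most tissues. In mammals their transcription usually starts within a run of pyrimidines, the terminal oligopyrimidine (TOP) tract, through which mTORC1, a kinase that senses amino acids, controls how often they are translated. Translation itself was not measured here.

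The sequence around the transcription start is shown for 9 of the genes. RefSeq promoters on build GRCr8 were found for 67 of the 85 genes. Each run below holds 30 bases before the annotated start and 25 bases from it, and is written 5′ to 3′ on the strand of the gene. Capitals mark CTTTC and CTCTT, 2 pyrimidine words that overlap in CTCTTTC. Rpl19 (chr10:83519034-83519088, plus strand) and Rps26 (chr7:1643380-1643434, minus strand) are given as examples with both words. Rpl22 (chr5:168117931-168117985, plus strand) and Rps4x (chrX:71342897-71342951, minus strand) are given beside their paralogs Rpl22l1 (chr2:113683166-113683220, plus strand) and Rps4y2 (chr4:183000883-183000937, plus strand). Rps27 (chr2:177964582-177964636, minus strand), Rps2 (chr10:14251818-14251872, plus strand) and Rplp0 (chr12:46718366-46718420, minus strand) are described in the results.
Rpl19: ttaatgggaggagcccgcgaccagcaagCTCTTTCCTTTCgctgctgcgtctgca
Rps26: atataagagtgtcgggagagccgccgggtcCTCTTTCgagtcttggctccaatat
Rpl22: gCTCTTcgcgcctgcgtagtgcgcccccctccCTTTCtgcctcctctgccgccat
Rpl22l1: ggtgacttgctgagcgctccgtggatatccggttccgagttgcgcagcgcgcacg
Rps4x: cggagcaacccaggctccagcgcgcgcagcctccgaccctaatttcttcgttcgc
Rps4y2: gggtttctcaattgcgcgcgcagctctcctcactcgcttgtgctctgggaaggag
Rps27: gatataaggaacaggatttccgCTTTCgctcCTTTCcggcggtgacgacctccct
Rps2: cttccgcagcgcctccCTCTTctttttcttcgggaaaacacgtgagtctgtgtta
Rplp0: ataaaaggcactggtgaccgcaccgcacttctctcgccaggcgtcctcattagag

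At least 1 of these words lay on the gene's strand in 45 of the 63 promoters of large subunit, small subunit and stalk genes (71.4%), against 13.6% of all 33469 promoters in the same 55-base window. On the opposite strand the share was 4.76%, against 13.2% of all promoters. Over the 300 bases from 250 before to 50 after the start, the ETS-type word CCGGAAG lay on either strand in 31.7% of these promoters and in 8.75% of all. The GC box word GGGCGG was found on either strand in 58.7%, against 33.1% of all, and the TATA box word TATAAA in 9.52%, against 14.2% of all. Neither pyrimidine word lay in the windows of Rpl22l1, Rps4y2, Rps4x and Rplp0. Such a match describes letters only, and a missing word does not mean a missing pyrimidine run. The window of Rplp0, for one, holds cttctctc across its annotated start.

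The sequenced reads summed to between 12499945 and 30466461 estimated counts per rat, and the 11553 genes with 30 or more counts in any rat were tested. Of the 85 genes, 83 were tested. Rpl39l and Rpl3l stayed below this minimum. A gene was called different between the diets when its *P* value, adjusted over all 11553 genes, did not exceed 0.05, and it is termed nominal, nominally higher or nominally lower when its unadjusted *P* value in edgeR fell below 0.05, unless another tool is named. Kidney markers were present in every rat. The summed levels of podocyte, lymphocyte and collecting duct markers did not overlap between the diets, and those of the other marker lists did. Of 14 proximal tubule markers 12 lay higher in HD (5 nominally, 3 called by DESeq2), with a median log2 fold change of 0.43 and a sum of 26982 to 32692 CPM (counts scaled to a common library size with TMM factors) in AL and 31931 to 38507 CPM in HD. Of 11 podocyte markers 9 lay higher (4 nominally, 4 called by DESeq2), with a sum of 92.2 to 186 CPM in AL and 241 to 471 CPM in HD. All 14 macrophage markers lay lower (10 nominally, 2 called by DESeq2), with 358 to 828 CPM in AL and 199 to 409 CPM in HD, as did all 8 lymphocyte markers (7 nominally, 2 called by DESeq2), with 16.2 to 52.5 CPM in AL and 5.52 to 12.1 CPM in HD. Of 12 endothelial markers 10 lay lower (1 nominally, 0 called by DESeq2), with a median of -0.35, 410 to 727 CPM in AL and 263 to 588 CPM in HD. Of 7 thick ascending limb and distal tubule markers 5 lay lower (2 nominally higher, 1 nominally lower, 1 called by DESeq2). Of 10 collecting duct markers 5 lay lower and 5 higher (4 nominally lower, 2 nominally higher, 2 called by DESeq2). Over all genes 10.6% were nominal, and DESeq2 called 1.58%. EdgeR called 0 genes of these marker lists. The part of these cell types in the ribosomal protein values was not tested.

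As a group, the genes took 4.25%, 3.49% and 3.66% of all counts in the AL rats 61, 71 and 88. Their shares were 3.19%, 3.49% and 3.68% in the HD rats 64, 67 and 69. The means were 3.80% ± 0.40 in AL and 3.45% ± 0.24 in HD (SD, n = 3 each). The groups overlapped, and rat 61 stood above the other 5 rats. The difference between the means was -0.35 percentage points, and -0.12 without rat 61. On the scale of TPM (abundance corrected for transcript length and library size), the shares were 10.6% ± 0.91 in AL and 9.63% ± 0.67 in HD (SD, n = 3 each).

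Most of the genes were expressed at similar levels per transcript length. The median of the 85 genes' mean TPM was 1233, and 81 genes had a mean above 100 TPM. Over the 77 genes of the subunits and the stalk, the 10th and 90th percentiles were 714 and 1763 TPM, a 2.47-fold range. Rpl41, whose product is a very short basic peptide of the large subunit, was highest with a mean of 4380 TPM over 6 rats (4006 to 5362 TPM). Rps29, a small zinc-binding protein of the small subunit, followed with 3128 TPM (2688 to 3572 TPM). The stalk protein gene Rplp1 had 3105 TPM (2854 to 3561 TPM), so its range overlapped that of Rps29.

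The lowest levels belonged to genes outside the standard ribosome. Rps19bp1 had a mean of 42.8 TPM over 6 rats, and the paralog Rps4y2 had 78.4 TPM. Rpl39l, a paralog of Rpl39 known from testis, reached 3.0 TPM in rat 67 at most, and Rpl3l, the muscle paralog of Rpl3, reached 0.22 TPM in rat 71 at most. Among the subunit genes, Rpl37a was lowest with 149 TPM, but it shares its locus with Rpl37a-ps1, as described further on.

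**Figure D1:**
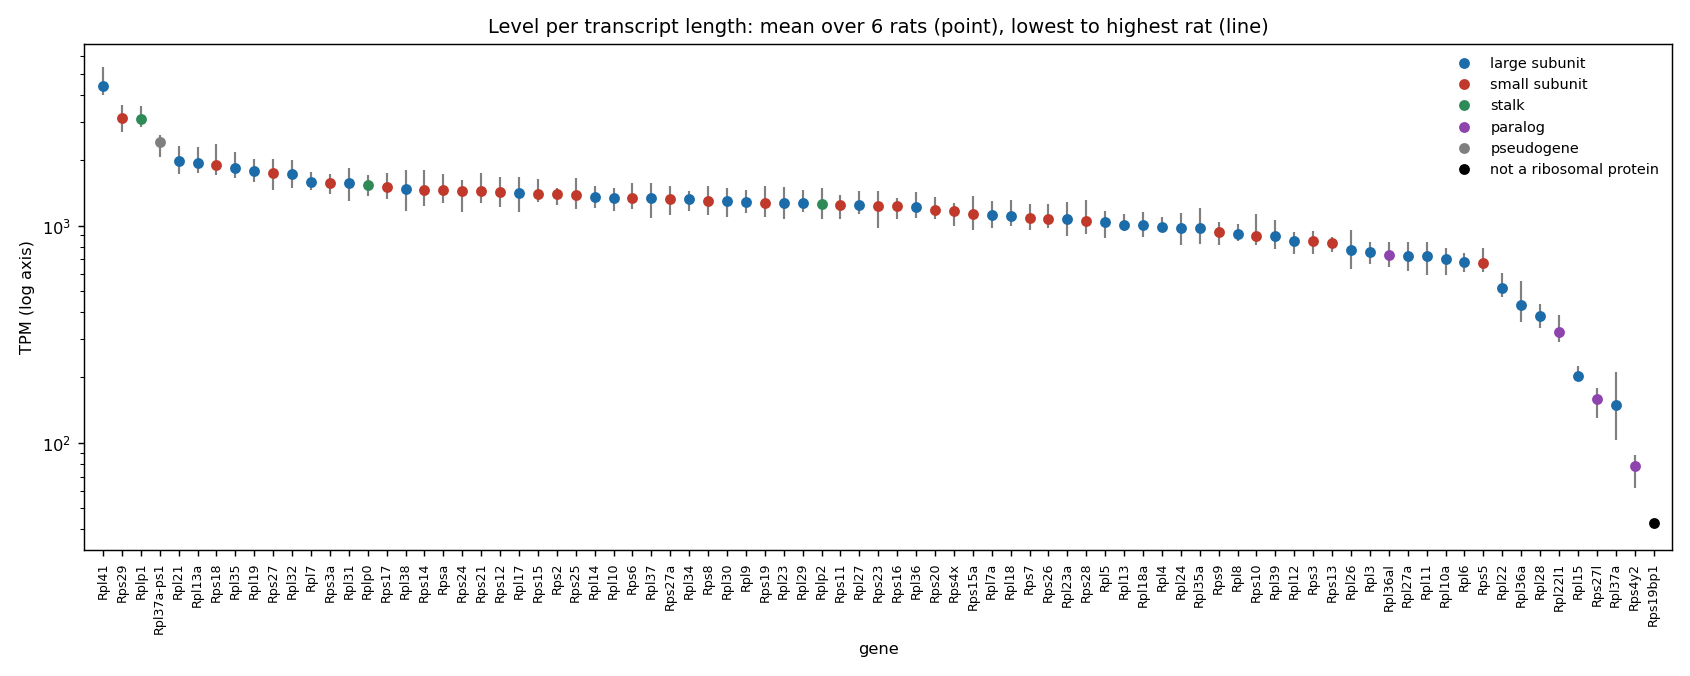
Mean TPM over 6 rats (points, log axis) and the lowest to highest rat (lines) for the 83 genes with a mean above 10 TPM, ordered by level and colored by kind. Most subunit genes form a plateau near 1000 TPM, Rpl41, Rps29 and Rplp1 stand above it, and Rps4y2 and Rps19bp1 lie at the low end.

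Beside their standard partners, the paralogs kept ratios that differed from pair to pair. Summed TPM of Rpl22l1 was 63.9% ± 12.4 of that of Rpl22 in AL and 61.6% ± 2.55 in HD (SD, n = 3 each), the AL range running from 49.7% in rat 61 to 72.7% in rat 71. Rpl36al exceeded Rpl36a, with 170% ± 16.0 in AL and 171% ± 18.2 in HD (SD, n = 3 each). The paralog Rps27l stood at 9.19% ± 0.77 of Rps27 in AL and at 9.16% ± 2.26 in HD (SD, n = 3 each). Rps4y2, annotated on rn5 with a single exon on chromosome 4, stood at 6.46% ± 1.36 of Rps4x in AL and at 7.09% ± 0.28 in HD (SD, n = 3 each), while Rps4x has 6 exons on chromosome X. The ranges of both groups overlapped in all of these pairs. Paralogs can share reads, so the ratios depend on how the authors' software divided them.

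None of the genes passed the test between the diets. By the quasi-likelihood test of edgeR, 0 of 83 were called, as were 0% of the 11553 genes tested, and the smallest adjusted *P* value among the 83 was 0.549. The count of nominal genes in edgeR was also 0 of 83, against 10.6% of all genes, with 0 of 83 higher (4.66% of all genes) and 0 of 83 lower (5.94% of all genes). DESeq2 called 0 of 83, against 1.58% of all genes, and gave 0 of 83 nominal genes, against 11.5% of all genes. Scaled by library size alone, edgeR gave 6 of 83 that were nominally lower, against 7.33% of all genes, and called 0 of 83. On log2 TPM, limma gave 7 of 83 that were nominally lower with a pseudocount of 0.5, against 5.96% of all genes, and 7 of 83 with a pseudocount of 5, against 5.81% of all genes, and called 0 of 83. The AL and HD rats overlapped in all 83 genes, whereas 14.3% of all genes showed no overlap between the groups. The 95% intervals of the fold change lay within 1.5-fold in either direction for 78 of 83 genes. The exceptions were Rpl26, Rpl35a, Rpl37a, Rpl38 and Rps14, and over all 83 genes the interval bounds ran from -0.65 to 0.75 on the log2 scale.

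The signs of the fold changes were uneven. On the log2 scale 70 genes lay lower and 13 higher in HD, while 48.7% of all genes lay lower, and the median was -0.095 against 0.0067 over all genes. Of the large subunit genes 36 of 43 lay lower, with a median of -0.090, and of the small subunit genes 29 of 31, with a median of -0.11. The sign of this tilt depended on which AL rats were kept. Without rat 61, 20 genes lay lower and 63 higher in HD, against 53.5% of all genes higher, and the median was 0.053 against 0.022 over all genes. The 83 genes are not independent samples of the diets, and no test was made over them.

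**Figure D2:**
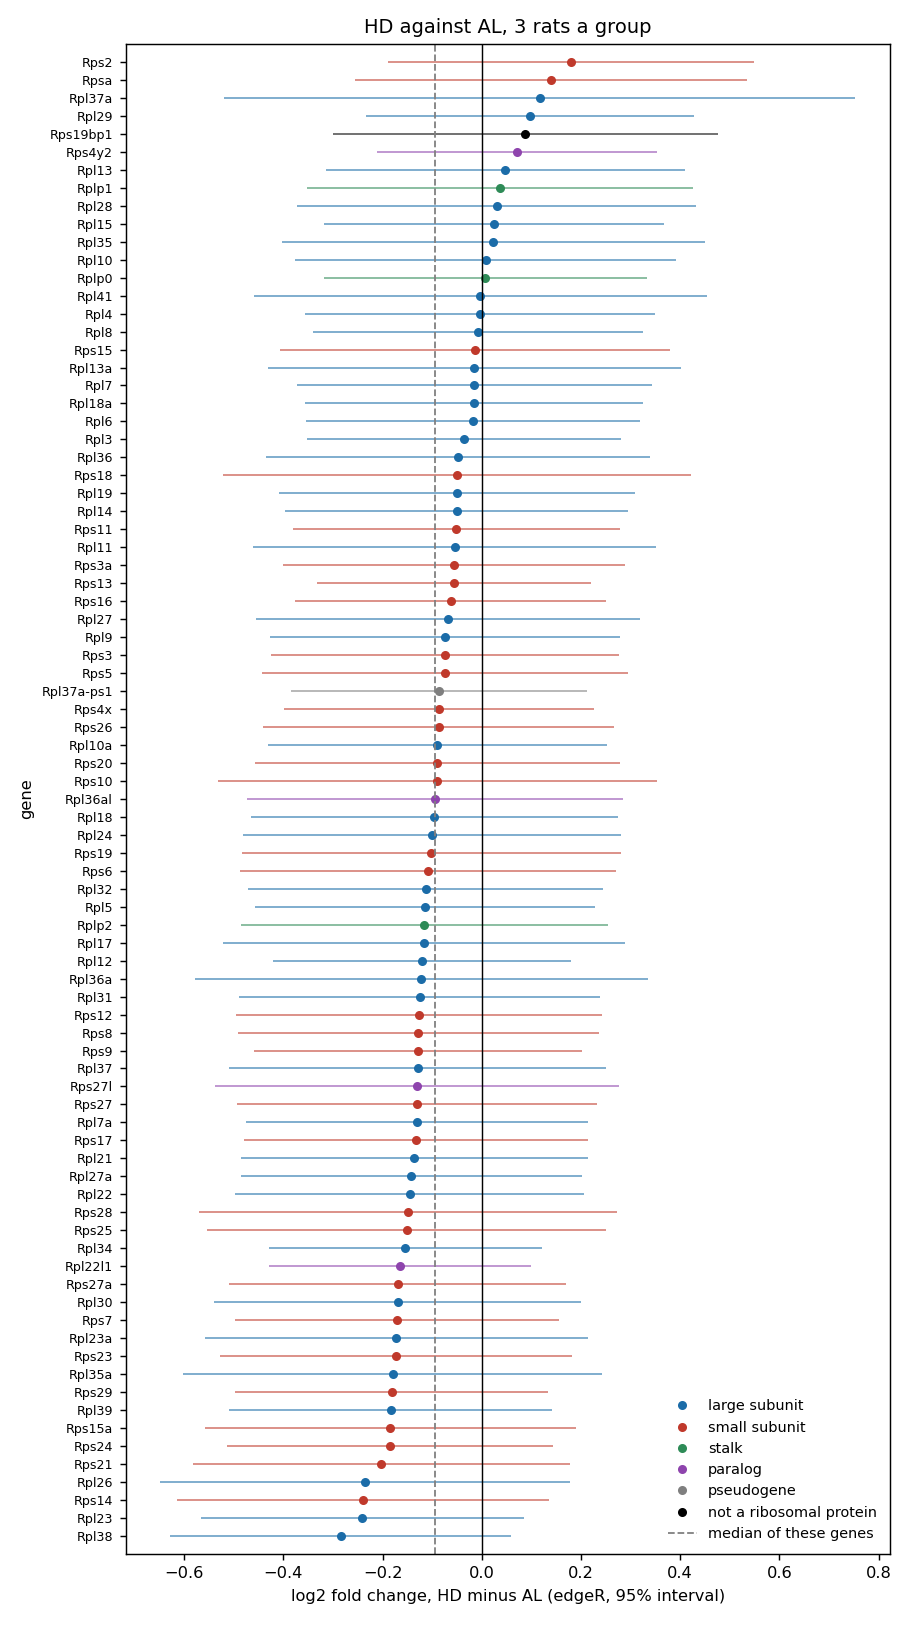
Log2 fold change between HD and AL (points) with its 95% interval (lines) from edgeR for the 83 tested genes, 3 rats in each group, ordered by fold change and colored by kind. Every interval includes 0, and 70 of the 83 points lie below 0.

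Rat 61 was the highest of the 6 rats in 79 of the 83 genes, against 18.4% of all genes. The median deviation of the 83 genes from their own mean over the rats, on the scale of log2 CPM, was 0.32 in rat 61, -0.18 in rat 71 and -0.018 in rat 88. Among HD rats it was -0.11 in rat 64, 0.021 in rat 67 and -0.029 in rat 69. Both extremes, rat 61 above and rat 71 below, were thus AL rats. The exceptions to the high level in rat 61 were Rpl10, which was highest in rat 67, and the paralogs Rpl22l1, Rps27l and Rps4y2.

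**Figure D3:**
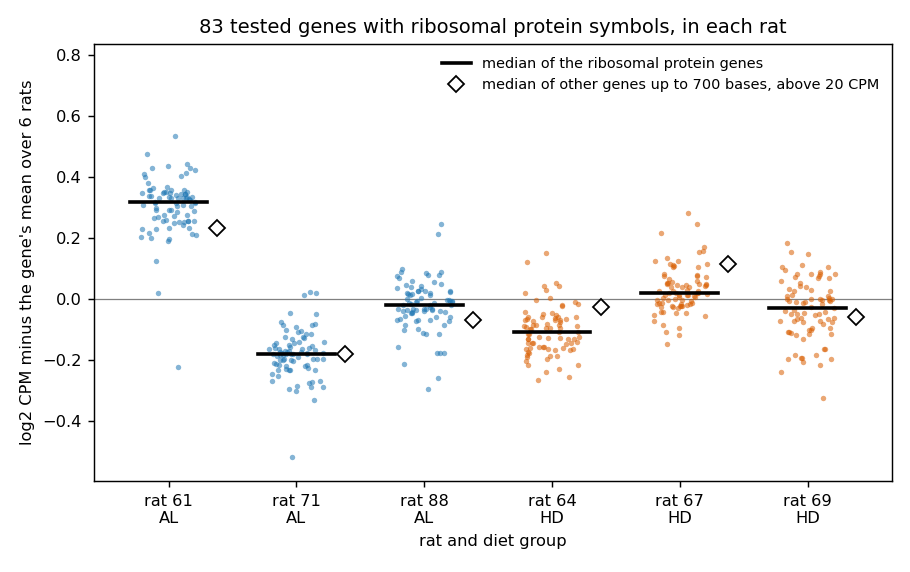
Log2 CPM of each of the 83 tested genes minus its mean over 6 rats (points), by rat, with their median (bar) and the median of 219 other short genes (diamond). Rat 61 lies highest with a median of 0.32, rat 71 lies lowest with -0.18, and the 3 HD rats lie between them.

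Transcripts of the ribosomal protein genes are short, with a median length of 563 bases over the tested genes. The 219 other genes of up to 700 bases with a mean above 20 CPM deviated in the same rats, with a median of 0.23 in rat 61 and -0.18 in rat 71. Their median log2 fold change was 0.018, with 97 lower and 122 higher in HD, and it was -0.032 for those of up to 500 bases. The 54 ribosomal protein genes of up to 700 bases had a median of -0.12, with 49 lower, and the 29 longer ones had a median of -0.051, with 21 lower. In rat 61 the median deviation of other genes above 20 CPM fell with length. It was 0.29 up to 500 bases, 0.036 at 1500 to 3000 bases and -0.035 above 3000 bases. In rat 71 the values at the same lengths were -0.17, -0.063 and 0.046. The part of transcript length in the values of rat 61 was not tested.

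The levels of the genes varied almost in unison over the rats. Pearson's r of a gene's deviations with the median of the 83 genes, over 6 rats, had a median of 0.94, and 56 of 83 genes were above 0.9. All of these values share the same 6 libraries, and each gene is part of the median, so r is given as a description. Rps13 (r = 0.999), Rpl18 (r = 0.993) and Rps12 (r = 0.991) were most like the median. Least like it were the paralogs Rps4y2 (r = -0.64), Rpl22l1 (r = 0.11) and Rps27l (r = 0.56). Among the subunit and stalk genes the lowest r was 0.61, for Rps2.

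The gene with the lowest fold change was Rpl38, a large subunit protein known for its part in translating Hox messenger RNAs. It had 295, 216 and 283 CPM in the AL rats 61, 71 and 88, and 199.9, 231 and 220.5 CPM in the HD rats 64, 67 and 69. Rat 71 lay among the HD rats, so the groups overlapped. The log2 fold change was -0.28 ± 0.15 (SE), with an adjusted *P* value of 0.549 in edgeR and 0.521 in DESeq2. Without rat 61 it was -0.20.

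Rpl23, a large subunit protein that can bind the p53 regulator Mdm2, had 459, 349 and 371 CPM in rats 61, 71 and 88 and 321, 359 and 317 CPM in rats 64, 67 and 69. Its log2 fold change of -0.24 ± 0.14 (SE) had an adjusted *P* value of 0.598 (edgeR) and was -0.11 without rat 61. Rps14, a small subunit protein whose loss causes anemia in the 5q- syndrome, had 555, 372 and 440 CPM in AL and 371, 384 and 403 CPM in HD, in the same order of rats. The fold change of Rps14 was -0.24 ± 0.16 (SE) on the log2 scale, with an adjusted *P* value of 0.655 (edgeR), and -0.073 without rat 61. In both genes rat 61 stood highest and rat 71 lay within the range of the HD rats. Rps29, with 663, 546 and 511 CPM in AL and 486, 532 and 498 CPM in HD, had a log2 fold change of -0.18 ± 0.14 (SE).

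The highest fold change belonged to Rps2, a protein at the messenger RNA entry of the small subunit. It had 927 CPM in rat 61, 662 in rat 71 and 695 in rat 88, and 894, 872 and 821 CPM in rats 64, 67 and 69. The HD rats lay above rats 71 and 88 but below rat 61. The log2 fold change was 0.18 ± 0.16 (SE), with an adjusted *P* value of 0.753 (edgeR) over all rats and 0.264 without rat 61, where the fold change was 0.35.

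Rpsa, a small subunit protein that also serves as a laminin receptor, likewise had its HD rats above rats 71 and 88 but below rat 61. It had 1097, 786 and 770 CPM in rats 61, 71 and 88 and 956, 920 and 1047 CPM in rats 64, 67 and 69. Its log2 fold change was 0.14 ± 0.17 (SE), with an adjusted *P* value of 0.836 (edgeR), and it was 0.32 without rat 61, with an adjusted *P* value of 0.298 (edgeR). Rpl29, a large subunit protein, had 544, 422 and 421 CPM in AL and 486, 467 and 530 CPM in HD, a log2 fold change of 0.097 ± 0.14 (SE). Rps19bp1 had between 11.1 and 14.1 CPM in the 6 rats.

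Leaving out rat 61 gave 3 of 83 genes that were nominally higher in HD, against 6.32% of all genes, and 0 of 83 that were called, against 0.0173% of all genes. They were Rps2, Rpsa and Rpl37a, the last named after its values were seen. Leaving out rat 71 instead gave 2 of 83 that were nominally lower, Rpl38 and Rps14, against 3.53% of all genes. Rpl37a had 33.0, 15.7 and 18.4 CPM in rats 61, 71 and 88 and 23.3, 26.4 and 22.9 CPM in rats 64, 67 and 69, and its log2 fold change was 0.12 over all rats and 0.51 without rat 61, with an adjusted *P* value of 0.237 (edgeR).

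**Figure D4:**
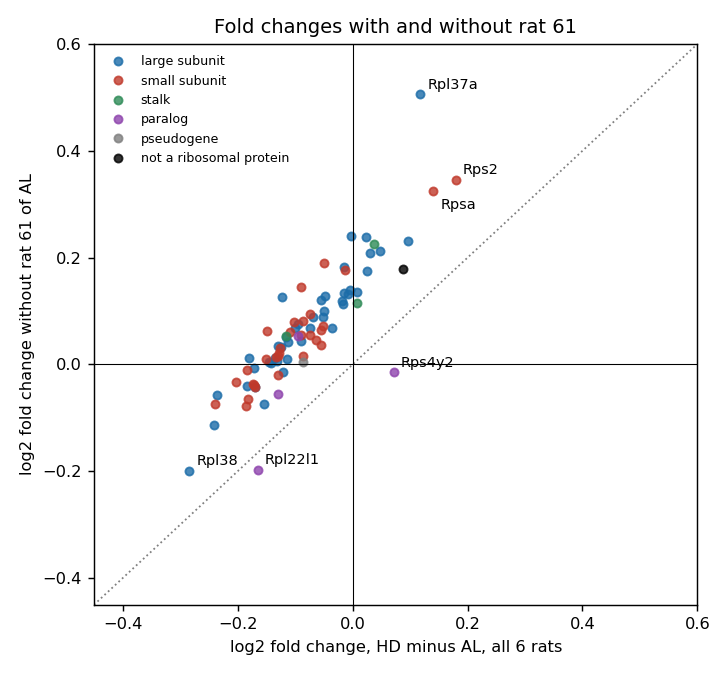
Log2 fold change between HD and AL without rat 61 of the AL group (vertical axis) against that with all 6 rats (horizontal axis) for the 83 tested genes, with a dotted line of equality. All points except those of the paralogs Rps4y2 and Rpl22l1 lie above the line, and Rpl37a, Rps2 and Rpsa are highest without rat 61. Rat 61 was the highest rat in 79 of the 83 genes, so leaving it out raises their fold changes by itself. The position above the line was thus largely set by the choice of rat.

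Of the 3 stalk genes 2 lay higher and 1 lower in HD. Rplp0, the scaffold of the stalk and a common reference gene in PCR, had 1193, 972 and 962 CPM in rats 61, 71 and 88 and 980, 1037 and 1126 CPM in rats 64, 67 and 69. Its log2 fold change was 0.0074 ± 0.14 (SE), with a 95% interval from -0.32 to 0.33, and it changed sign with the scaling, being -0.064 with library size alone. Rplp1 had 1112, 771 and 794 CPM in AL and 924, 929 and 893 CPM in HD, with a log2 fold change of 0.037 ± 0.17 (SE), and -0.032 with library size alone. Rplp2 had 391, 270 and 298 CPM in AL and 276, 317 and 292 CPM in HD, with a log2 fold change of -0.12 ± 0.16 (SE) that was 0.053 without rat 61. In each of these genes rat 61 was highest and the groups overlapped.

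Rps6, the small subunit protein phosphorylated downstream of mTORC1, had 832, 569 and 644 CPM in rats 61, 71 and 88 and 612, 675 and 608 CPM in rats 64, 67 and 69. The log2 fold change of Rps6 messenger RNA was -0.11 ± 0.16 (SE), and 0.060 without rat 61. Its phosphorylation was not measured here. Rps3, which lines the messenger RNA entry and also acts in DNA repair, had 513, 365 and 435 CPM in AL and 390, 447 and 410 CPM in HD. Its log2 fold change was -0.075 ± 0.15 (SE).

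Rpl5 and Rpl11 can signal failures of ribosome assembly to p53. Rpl5, which binds 5S ribosomal RNA together with Rpl11, had 838, 620 and 697 CPM in rats 61, 71 and 88 and 615, 667 and 708 CPM in rats 64, 67 and 69, a log2 fold change of -0.11 ± 0.15 (SE). For Rpl11 the values were 508, 340 and 393 CPM in AL and 349, 417 and 428 CPM in HD, a log2 fold change of -0.055 ± 0.17 (SE). The groups overlapped in both, with rat 61 highest and the HD rats on either side of rat 88.

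Rpl3, at the peptidyl transferase center, had a log2 fold change of -0.036 ± 0.14 (SE), and Rpl10, which joins the large subunit late in its assembly, had 0.0077 ± 0.16 (SE). Rpl10 was one of the few genes not led by rat 61, with 722 CPM in rat 61 and 729.5 CPM in rat 67, and its sign changed to -0.067 with library size alone. Rpl13a, a second common reference gene, had 968, 620 and 723 CPM in AL and 717, 773 and 796 CPM in HD, with a log2 fold change of -0.015 ± 0.18 (SE). Its 95% interval ran from -0.43 to 0.40. Rpl39, of the peptide exit tunnel, had a log2 fold change of -0.18 ± 0.14 (SE), and Rpl41 had -0.0030 ± 0.20 (SE).

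Rps27 had 412, 289 and 334 CPM in rats 61, 71 and 88 and 288, 316 and 342 CPM in rats 64, 67 and 69, with a log2 fold change of -0.13 ± 0.15 (SE). Rps27a, which is made as a fusion with ubiquitin, had 532, 392.4 and 442 CPM in AL and 379, 441 and 394 CPM in HD, with a log2 fold change of -0.17 ± 0.15 (SE). The X-linked Rps4x had a log2 fold change of -0.086 ± 0.13 (SE). The groups overlapped in each of these genes, with rat 61 highest.

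Some of the paralogs departed most from the shared pattern. Rps4y2 had 38.5, 45.6 and 47.9 CPM in rats 61, 71 and 88 and 43.0, 48.6 and 47.2 CPM in rats 64, 67 and 69, so that rat 61 was its lowest rat. Its log2 fold change of 0.072 ± 0.12 (SE) became -0.015 without rat 61, and was also -0.015 with library size alone. Rpl22l1 had 108, 108 and 124 CPM in AL and 102, 108 and 93.5 CPM in HD, a log2 fold change of -0.17 ± 0.11 (SE) with an adjusted *P* value of 0.665 (edgeR). Its standard partner Rpl22 had 171, 116 and 140 CPM in AL and 129, 133 and 124 CPM in HD, with a log2 fold change of -0.15 ± 0.15 (SE) that was 0.0053 without rat 61. Rps27l, a p53 target in other tissues, had 77.4, 64.3 and 69.2 CPM in AL and 58.6, 80.9 and 53.1 CPM in HD, with a log2 fold change of -0.13 ± 0.17 (SE). Rpl36al had a log2 fold change of -0.095 ± 0.16 (SE).

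Several genes had reads that could belong to more than 1 place. The 85 genes were listed with 92 transcripts, and 7 genes had more than 1. Rpl7a, Rpl8, Rplp2, Rps6 and Rps9 were each listed with a pair of entries of equal counts. Rps19, whose mutations cause Diamond-Blackfan anemia, was listed on rn5 on chromosome 1 (83007889 to 83013591, plus strand, 6 exons) and on chromosome 9 (15706480 to 15712182, minus strand, 6 exons). The chromosome 1 entry took 5.62% of its counts in rat 61, 27.3% in rat 71 and 13.9% in rat 88, and 11.3%, 24.0% and 22.9% in rats 64, 67 and 69. The division varied widely inside both groups and was uncertain within a rat. In rat 61 the chromosome 1 entry had 85.3 TPM with bounds of 4.41 to 813 TPM. In rat 88 its 175.6 TPM lay below the bounds of 178 to 862 TPM. The bounds in both rats were deposited for the expression signal, a separate estimate from the TPM value. The summed Rps19 level had a log2 fold change of -0.10 ± 0.16 (SE).

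Rpl37a and its pseudogene Rpl37a-ps1 were listed over the same stretch of rn5 chromosome 9 (79774879 to 79776319 for the gene's longest transcript and 79774919 to 79775889 for Rpl37a-ps1, both on the plus strand). Rpl37a-ps1 took 90.9%, 94.4% and 94.0% of the summed counts of the pair in rats 61, 71 and 88 and 91.6%, 91.8% and 92.5% in rats 64, 67 and 69. The summed level was 362, 278 and 308 CPM in AL and 277, 320 and 306 CPM in HD, so rat 61 was again highest and the groups overlapped. The value of Rpl37a alone, including its fold change without rat 61, depends on how the reads of this locus were divided.

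Ribosomal proteins whose symbols lie outside the naming scheme had similar values. Fau, which encodes Rps30 fused to a ubiquitin-like protein, had 692, 463 and 543 CPM in rats 61, 71 and 88 and 508, 559 and 556 CPM in rats 64, 67 and 69, with a log2 fold change of -0.065 ± 0.16 (SE). Gnb2l1, the scaffold protein Rack1 of the small subunit, had a log2 fold change of -0.030 ± 0.12 (SE). Over the 6 rats Fau had r = 0.986 with the median of the 83 genes, and Gnb2l1 had r = 0.758.

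The medians of other translation lists ran from -0.042 to 0.074, against 0.0067 over all genes. Their counts of higher and lower genes stand beside 48.7% of all genes lower in HD. Neither edgeR nor DESeq2 called a gene of the following lists. Nominally higher were 1 of 34 initiation factors, 1 of 76 ribosome assembly genes and 1 of 16 regulators, against 4.66% of all genes. No gene of these lists was nominally lower, against 5.94% of all genes. Of 34 initiation factors, 20 lay higher and 14 lower in HD, with a median log2 fold change of 0.047, and Eif2b2, a subunit of the exchange factor for eIF2, was higher at an unadjusted *P* value of 0.0243 (edgeR). Of 11 elongation factors, 8 lay higher and 3 lower, with a median of 0.039 and none of them nominally. Of 76 ribosome assembly genes, 49 lay higher and 27 lower, with a median of 0.054. Among these Myc, a transcription factor that drives ribosome production, had 28.5 CPM ± 13.8 in AL and 58.6 CPM ± 6.37 in HD (SD, n = 3 each), with an unadjusted *P* value of 0.0110 and an adjusted *P* value of 0.402 (edgeR).

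Of 16 regulators of translation, 11 lay higher and 5 lower, with a median of 0.074. Eif4ebp2, a repressor of cap-dependent initiation that mTORC1 inactivates, had 22.8 CPM ± 5.16 in AL and 34.2 CPM ± 7.42 in HD (SD, n = 3 each), with an unadjusted *P* value of 0.0320 and an adjusted *P* value of 0.426 (edgeR). Of 12 other messenger RNAs with TOP tracts, 5 lay higher and 7 lower, with a median of -0.042, which was 0.068 without rat 61. Their median deviation was 0.24 in rat 61 and -0.12 in rat 71.

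The proteins of the mitochondrial ribosome, which translates the messages of the mitochondrial genome, offered a comparison of similar size. Of 68 such genes, 56 lay higher and 12 lower in HD, against 48.7% of all genes lower, with a median log2 fold change of 0.068. Their signs were thus uneven too, in the other direction from the cytosolic genes, of which 70 of 83 lay lower. No test was made over these genes. Only Mrpl4 (1 of 68) was nominally higher, against 4.66% of all genes. Its unadjusted *P* value was 0.0430 and its adjusted *P* value was 0.458 (edgeR). The median deviation of these genes was 0.19 in rat 61 and -0.20 in rat 71, so both ribosomes had their highest values in rat 61 and their lowest in rat 71. Without rat 71 the median of the mitochondrial list was -0.017.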

How the data were processed

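Poly(A)-selected kidney RNA of 6 rats was sequenced single-end, one library per rat. The authors ran RSEM 1.1.15 at default parameters with University of California Santa Cruz gene definitions for rn5. For every transcript they deposited an estimated count (expected count, not normalized), a posterior mean of that count and TPM. The deposited length-normalized expression signal and its bounds entered only the description of genes with several entries. Read filters are not given in the sources used here.

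Estimated counts were summed per gene and rounded, and genes reaching 30 counts in any rat were tested. Groups were compared by quasi-likelihood F tests in edgeR 4.0.16 (R 4.3.3, TMM), with *P* values adjusted by Benjamini-Hochberg over all 11553 genes and a threshold of 0.05. DESeq2 1.42.0 and limma 3.58.1, the latter on log2 TPM plus 0.5 or 5, were alternatives, with other scalings, other low-count filters and each rat left out. Deviations were taken on log2 CPM plus 0.5. Fits were tried on simulated counts with planted log2 changes of 1 and 2, of which edgeR found 62.6% and 94.0%. Smaller changes, such as those of the ribosomal protein genes, were not simulated. The common biological coefficient of variation was 0.242. Every pair of rats differed by a chi-square per degree of freedom of 23.6 to 77.7, so none was a repeat. With 3 rats per group, the *P* values weigh the difference between the diets against the spread between these animals.

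Members and gene lists were chosen with earlier results of these data known. Genes named with values are the 5 higher and 5 lower members with the smallest *P* values, a fixed set of well-known members, all paralogs, the extremes in TPM and in likeness to the median, ribosomal proteins with other symbols (results for some genes under this rule are left out), and, of the list genes with the smallest *P* values, those below 0.05. Promoters are RefSeq sequences on GRCr8. Python 3.11.15, pandas 2.3.3 and matplotlib 3.10.9 made tables and plots.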

Additional observations from a re-analysis of the deposited data

How the results depend on the processing

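No paired analysis was possible because the rat numbers differ between the groups and pair no animals. No ribosomal protein gene was called under any of the alternatives run. Nominal genes, 0 in the main test, numbered 6 with library size alone, all lower in HD, against 7.33% of all genes nominally lower. With limma they numbered 7 at either pseudocount (0.5 or 5), all lower, against 5.96% and 5.81% of all genes. They ran from 0 to 3 when a rat was left out. Without rat 61, 3 were higher, against 6.32% of all genes, and without rat 71, 2 were lower, against 3.53%. The tilt of the fold changes depended on which AL rat was removed. When single rats were left out, the number of genes lower in HD ran from 20 (without rat 61) to 78 (without rat 71). The median log2 fold change ran from 0.053 to -0.20 in the same order, and was positive only without rat 61. The difference in the share of TPM was -1.01 percentage points and that in the share of counts -0.35, which in relative terms are 9.47% and 9.19% lower in HD. Without rat 61 the difference in the share of counts was -0.12 percentage points, still lower in HD.

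The median of each translation list changed sign under some of the settings. With library size alone, which moved the median of all genes to -0.074, they were -0.035 for elongation factors, -0.023 for initiation factors, -0.022 for ribosome assembly genes, -0.0064 for regulators of translation and -0.0065 for mitochondrial ribosomal proteins. These values lay above the median of all genes, and that of other TOP mRNAs, -0.12, lay below it. With a rat left out the ranges were -0.027 to 0.12 for elongation factors and -0.013 to 0.14 for initiation factors. They were -0.018 to 0.14 for ribosome assembly genes and -0.017 to 0.20 for mitochondrial ribosomal proteins. Each of these lists was negative only without rat 71. Regulators of translation stayed positive, from 0.023 to 0.099. Other TOP mRNAs ran from -0.14 without rat 71 to 0.068 without rat 61, their only positive value.

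Of the 39 single genes followed, 17 of the 390 values from settings that kept all rats lay on the other side of 0, none of them called. These were -0.067 for Rpl10, -0.064 for Rplp0, -0.032 for Rplp1 and -0.015 for Rps4y2 with library size alone, -0.063 for Rpl10, -0.059 for Rplp0 and -0.014 for Rplp1 with limma on log2 TPM plus 0.5, and -0.063 for Rpl10, -0.059 for Rplp0 and -0.014 for Rplp1 with limma on log2 TPM plus 5. Further ones were -0.00063 for Rpl10 and -0.00024 for Rplp0 with DESeq2, -0.00069 for Rpl10 and -0.00035 for Rplp0 with RLE factors, -0.0093 for Rpl10 and -0.0074 for Rplp0 with 10 or more counts required in every rat, and 0.010 for Rpl41 with every gene above 0 kept. With a rat left out, log2 fold changes that changed sign had the ranges -0.12 to 0.14 for Rpl10, -0.18 to 0.12 for Rpl11, -0.15 to 0.18 for Rpl13a, -0.21 to 0.075 for Rpl18, -0.27 to 0.0053 for Rpl22, -0.11 to 0.069 for Rpl3, -0.21 to 0.053 for Rpl36al, -0.16 to 0.0043 for Rpl37a-ps1, -0.13 to 0.24 for Rpl41, -0.21 to 0.011 for Rpl5, -0.042 to 0.12 for Rplp0, -0.058 to 0.23 for Rplp1, -0.22 to 0.053 for Rplp2, -0.25 to 0.030 for Rps12, -0.12 to 0.037 for Rps13, -0.21 to 0.080 for Rps19, -0.24 to 0.017 for Rps27, -0.19 to 0.056 for Rps3, -0.14 to 0.015 for Rps4x, -0.015 to 0.14 for Rps4y2, -0.22 to 0.060 for Rps6, -0.19 to 0.11 for Fau and -0.085 to 0.035 for Gnb2l1. The cause of these changes was not tested. With 3 rats per group, the number of animals limits the precision. The median standard error of the 83 genes was 0.15 on the log2 scale.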
